A study of Mus musculus with 12 samples.

Results

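Liver RNA of db/db mice was analysed for *Bdh1* and *Acat1*, which encode enzymes of ketone body synthesis. All non-control probes whose RefSeq record belongs to either gene under a current or former symbol were taken. This gave 4 of 39429 probes and 2 of 20283 gene symbols, namely 3 probes for *Bdh1* and 1 for *Acat1*. The db/db mouse carries a defective leptin receptor and becomes obese and diabetic. All mice, controls included, were male db/db mice, 8 weeks old per the labels. Each of the 12 two-color arrays compared RNA pooled from the livers of 3 treated mice, labeled with Cy5, with the pooled RNA of 3 control mice, labeled with Cy3. MgH2, which releases H2 on contact with water, had been given by stomach gavage for 1, 3 or 7 days, with Mg(OH)2 as the control by the study's methods, and H2-water had been drunk for 14 days, with degassed water as the control. There were 3 arrays for each of these 4 groups. The labels give the MgH2 dose as 0.9 mg/kg once a day and the H2 content of the water as 0.8 mM, while the methods name other gavage doses. The 14-day group therefore differed from the others in agent, route and control as well as in time, and its arrays were also on a slide of their own, so that none of these can be told apart.

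Ketone bodies are made in the mitochondria of hepatocytes from acetyl-CoA, most of it from the oxidation of fatty acids, and are exported to feed other tissues during fasting. *Acat1* encodes mitochondrial acetoacetyl-CoA thiolase, which joins a pair of acetyl-CoA molecules in the opening step and, in the reverse direction, also acts in isoleucine breakdown and in ketone use. *Bdh1* encodes beta-hydroxybutyrate dehydrogenase of the inner mitochondrial membrane, which interconverts acetoacetate and beta-hydroxybutyrate in the closing step. Low insulin and high glucagon favor the pathway, and the nuclear receptor PPARα is a main regulator of its genes. The abbreviation ACAT is also used for the sterol O-acyltransferases, which make cholesterol esters and are unrelated enzymes.

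The brightest *Bdh1* probe was A_51_P163106, matched to the RefSeq transcript NM_175177, and it represents the gene here. The other probes, A_55_P2181753 and A_52_P468343, were matched to NM_001122683, the second transcript record of the gene. The *Acat1* probe, A_51_P319449, was matched to NM_144784. All 4 probes had 1 spot per array, and on each of the 12 arrays both channels lay above background without being saturated. Their signals differed widely in brightness. Processed signals of both channels ranged from 11511 to 15675 for A_51_P163106, from 4953 to 7068 for A_55_P2181753 and from 357 to 486 for A_52_P468343, which makes the last a dim probe. The *Acat1* probe ranged from 4584 to 6395. The sequences of the probes and their positions in the transcripts were not used here.

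*Bdh1* has 2 start sites in RefSeq, and their upstream sequences are shown since its probes were matched to separate transcript records. On GRCm38.p6 both lie on the plus strand of chromosome 16, and the 250 bases before each were read from 5′ to 3′. Which start site belongs to which probe's record was not determined.
Bdh1 start site 1, chr16:31422047-31422296: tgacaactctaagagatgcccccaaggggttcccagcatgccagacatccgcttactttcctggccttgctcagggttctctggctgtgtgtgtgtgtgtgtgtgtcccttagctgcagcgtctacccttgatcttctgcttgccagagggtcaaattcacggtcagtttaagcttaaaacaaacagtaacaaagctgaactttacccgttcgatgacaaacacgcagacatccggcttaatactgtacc
Bdh1 start site 2, chr16:31428503-31428752: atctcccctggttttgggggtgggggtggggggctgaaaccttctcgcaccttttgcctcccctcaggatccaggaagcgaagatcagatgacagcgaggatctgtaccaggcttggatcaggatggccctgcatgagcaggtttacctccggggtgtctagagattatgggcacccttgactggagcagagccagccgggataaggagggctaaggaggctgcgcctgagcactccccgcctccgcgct
The G and C content was 49.6% upstream of the first start site and 60.8% upstream of the second. Capitals would mark a match, on either strand, to the nuclear receptor half-site AGGTCA, its direct repeat AGGTCANAGGTCA, which contains the half-site, the forkhead core TGTTTAC, the E-box CACGTG, the GC box GGGCGG, the CCAAT box or the TATA box TATAAA, and none was found in these windows. Of 32851 promoter windows of this length in the same table, 14.0% held the half-site, 0.0335% the direct repeat, 3.17% the forkhead core, 6.02% the E-box, 32.7% the GC box, 33.8% the CCAAT box and 12.4% the TATA box. *Acat1* has no entry there.

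The question put to each group was whether the treated pool differed from the control pool of the same array. Values are log2 ratios of treated over control as deposited, so that 0 means equal signals, and a probe was called at an adjusted P under 0.05 in the limma fit over all 12 arrays. No array had its dyes swapped. A bias of a probe toward one dye, if the same on every array, would enter each ratio and cancel in a difference between groups, and was not tested.

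*Acat1* was lower in the treated pool on every array after 1 to 7 days of MgH2. After 1 day its log2 ratios were −0.19, −0.15 and −0.18 on replicates 1, 2 and 3, a mean of −0.17 ± 0.019 (SD, n = 3). After 3 days they were −0.17, −0.15 and −0.14, and after 7 days −0.15, −0.27 and −0.12. The spread was narrow at 1 and 3 days and widest at 7 days, where replicate 2 lay lowest. The treated signal was 0.886 of the control signal after 1 day (adjusted P = 0.0193), 0.899 after 3 days (adjusted P = 0.0158) and 0.883 after 7 days (adjusted P = 0.0057), all past the threshold. After 14 days of H2-water the ratios were −0.024, −0.091 and −0.15. They were again all below 0, as were those of 27.6% of all probes, but the mean of −0.088 (95% confidence interval −0.17 to −0.0054) did not pass (adjusted P = 0.178). The 1-day and 3-day calls were lost when any 1 replicate was left out, with an adjusted P of 0.0799 to 0.0902 at 1 day and 0.0526 to 0.0722 at 3 days, and the 7-day call was not (0.0157 to 0.0442).

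*Bdh1*, read by its brightest probe, was also lower with MgH2, and not with H2-water. After 1 day its log2 ratios were −0.12, −0.10 and −0.056, a mean of −0.095 ± 0.035 (SD, n = 3) that did not pass (adjusted P = 0.142). After 3 days they were −0.20, −0.096 and −0.13, and after 7 days −0.12, −0.27 and −0.13. Replicate 1 was lowest at 3 days and replicate 2 at 7 days, so that no single pool number was low throughout. The treated signal was 0.906 of the control signal after 3 days (adjusted P = 0.0219) and 0.886 after 7 days (adjusted P = 0.0070), both called lower. After 14 days of H2-water the ratios were 0.072, 0.059 and 0.065, all above 0 (as in 26.3% of all probes) and close together, and the mean of 0.066 (95% confidence interval −0.017 to 0.15) did not pass (adjusted P = 0.319). Without replicate 2, which held the lowest value, the 7-day mean was −0.13 (adjusted P = 0.0522), and at 3 days leaving out any 1 replicate ended the call (adjusted P = 0.0540 to 0.117).

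**Figure D1:**
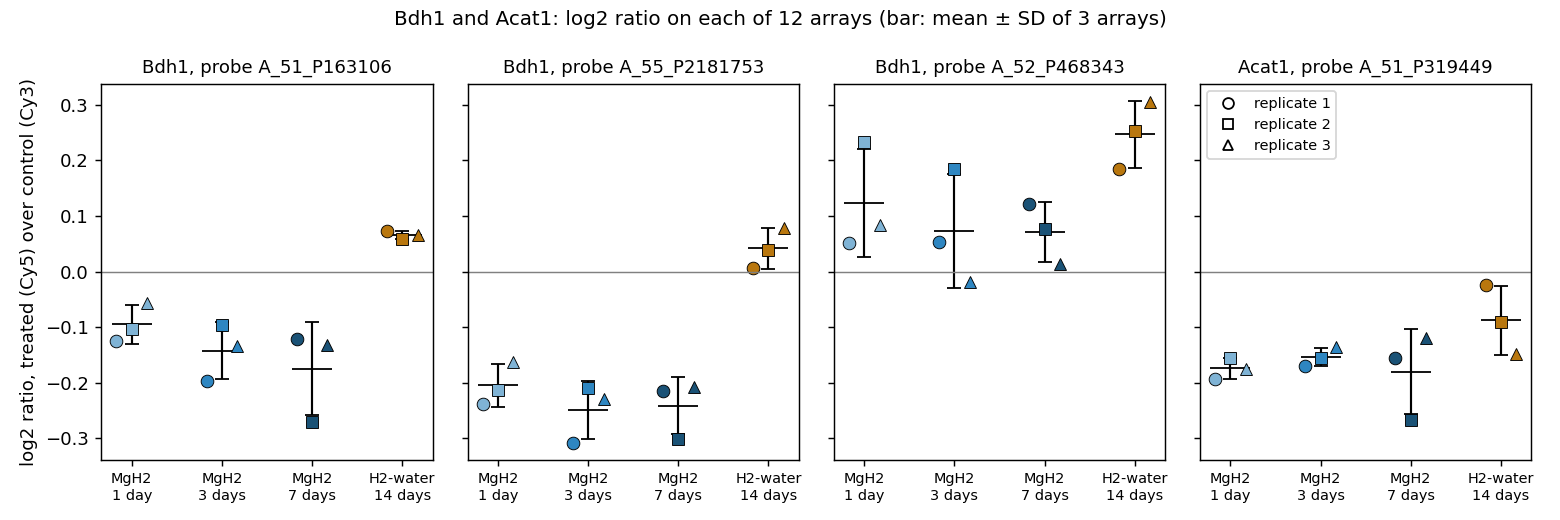
Log2 ratio of treated over control (vertical axis) on each of the 12 arrays for the 4 probes of *Bdh1* and *Acat1*, by group, with the mean and SD of 3 arrays as bars and the replicate number as the symbol. The first 2 *Bdh1* probes lie below 0 with MgH2 and above 0 with H2-water, the dim A_52_P468343 lies mostly above 0 throughout, and *Acat1* lies below 0 on all 12 arrays.

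The *Bdh1* probes of the other transcript record differed from each other in direction. A_55_P2181753 was lower than the brightest probe in mean in each MgH2 group, with ratios of −0.24, −0.21 and −0.16 after 1 day, −0.31, −0.21 and −0.23 after 3 days and −0.22, −0.30 and −0.21 after 7 days. Its treated signal was 0.868, 0.842 and 0.846 of control at 1, 3 and 7 days (adjusted P = 0.0081, 0.0014 and 0.0010), and its ratios at 14 days, 0.0061, 0.040 and 0.079, were above 0 without passing (adjusted P = 0.52). Leaving out replicate 1 or replicate 2 moved its 1-day adjusted P to 0.0546 and 0.0608. The dim probe A_52_P468343 went the other way. Its ratios were 0.051, 0.23 and 0.084 after 1 day, 0.054, 0.18 and −0.018 after 3 days and 0.12, 0.076 and 0.015 after 7 days. None of these 3 means passed, with adjusted P from 0.149 to 0.312. After 14 days they were 0.18, 0.25 and 0.30, a mean of 0.25 that was called higher (adjusted P = 0.0153), a call lost without any 1 replicate (adjusted P = 0.0564 to 0.119). The dim probe lay above the brightest *Bdh1* probe on all 12 arrays, and over the 9 MgH2 arrays their ranges did not overlap (−0.018 to 0.23 against −0.27 to −0.056). Whether it reads the same transcript was not tested.

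Read against all probes, the counts were as follows. Of the 4 probes, 2 were called lower and none higher after 1 day, where 4.23% of 19672 probes tested were called lower (7.16% with the replicate number as a block). After 3 days 3 of 4 were lower (background 11.1%), and after 7 days the same number was (background 14.2%). After 14 days 1 of 4, the dim *Bdh1* probe, was higher (background 4.95%) and none was lower (background 3.91%). Since 3 of the probes read 1 gene, these counts amount to a statement on 2 genes. The changes were also modest against the spread of all probes. Of all mean ratios, 10.2% lay below that of *Acat1* at 1 day and 17.6% at 7 days, and 24.5% and 18.3% lay below that of the brightest *Bdh1* probe.

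Averaged over the 3 MgH2 days, the ratio of *Acat1* was −0.17 (SE 0.021) and that of *Bdh1* −0.14 (SE 0.021) by its brightest probe and −0.23 (SE 0.020) by A_55_P2181753. The adjusted P values were 1.9e-04, 6.6e-04 and 2.2e-05. Among all probes 22.6% were called lower and 22.7% higher in this comparison. The dim *Bdh1* probe, at 0.089 (adjusted P = 0.0265), was called higher, and lost its call in 7 of 15 alternatives, among them scaling by channel totals (adjusted P = 0.106), median-centring (0.508), and leaving out replicate 1 (0.0728) or replicate 2 (0.222). *Acat1* and the 2 brighter *Bdh1* probes were below 0 on 9 of 9 MgH2 arrays, as 8.83% of probes were. The 9 arrays were not independent of each other. Control signals of arrays from different days with the same replicate number differed by a median absolute log2 difference of 0.0549 to 0.0751 over 9 pairs of arrays, less than the 0.0957 to 0.138 of 18 pairs with different numbers, while treated signals showed no such closeness (0.0886 to 0.168 against 0.0795 to 0.181). Arrays of 1 number may therefore share control RNA, which the labels do not state. When the 3 days were first averaged within each number, which leaves 3 values, all 3 probes kept their calls (adjusted P = 0.0301 for *Acat1*, 0.0324 and 0.0122 for *Bdh1*), while the share of all probes called was 17.0% in place of 45.2%.

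**Figure D2:**
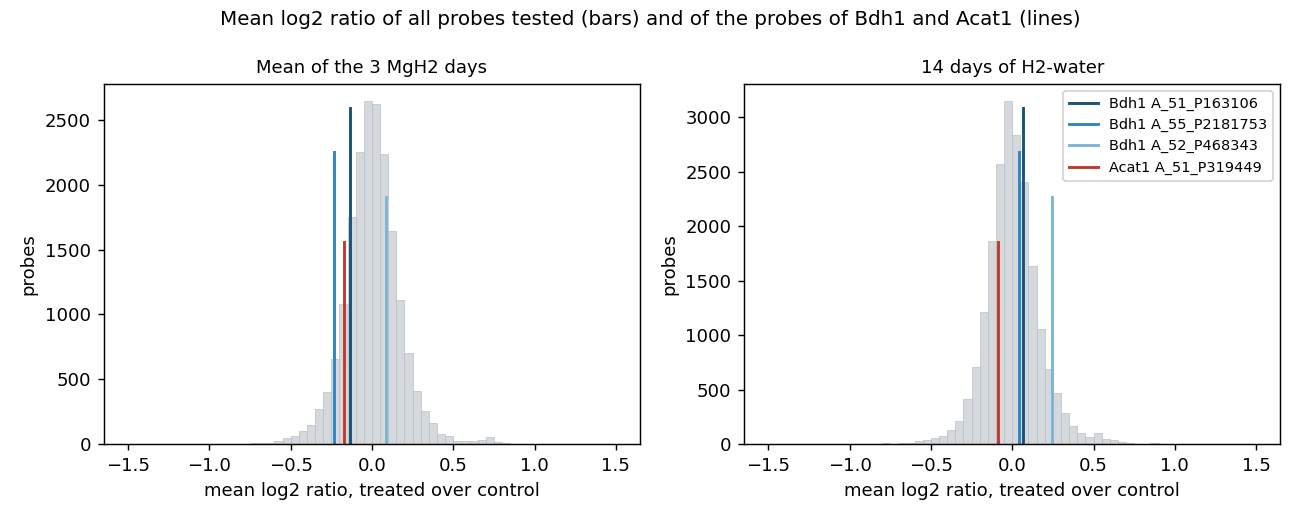
Number of probes (vertical axis) by mean log2 ratio of treated over control (horizontal axis) for all probes tested, over the 3 MgH2 days (left, 19000 probes) and after 14 days of H2-water (right, 20479 probes), with lines at the 4 probes of *Bdh1* and *Acat1*. Line heights carry no value. With MgH2, *Acat1* and 2 *Bdh1* probes lie in the lower flank of the distribution, and after H2-water only the dim *Bdh1* probe lies far from 0.

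Whether the ratio itself moved with time was tested as a difference between groups. Among the MgH2 days no probe of either gene passed. From 1 to 7 days the *Bdh1* ratio differed by −0.080 (95% confidence interval −0.20 to 0.037, adjusted P = 0.389) and the *Acat1* ratio by −0.0061 (−0.12 to 0.11, adjusted P = 0.956). The share of all probes called was 6.94% for that difference, 0.0208% for 3 days against 1 day and 0 for 7 days against 3 days, where 904 of 19107 probes had an unadjusted P under 0.05. With the replicate number as a block these shares were 13.4%, 0.333% and 0, and as a random block 20.9% and 6.08% for the first 2. For 7 days against 1 day the share was 0.0052% without replicate 3, 0.727% without replicate 2 and 0.526% without replicate 1. Within a slide, the only 3-day array hybridised beside the 1-day arrays had a *Bdh1* ratio 0.10 below their mean and an *Acat1* ratio 0.0041 above it, and the 2 arrays at 7 days had ratios 0.080 and 0.065 below those of the 2 arrays at 3 days beside them, for *Bdh1* and *Acat1*.

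The H2-water arrays differed from the 7-day MgH2 arrays in *Bdh1* and not detectably in *Acat1*. The *Bdh1* ratio was higher at 14 days by 0.24 (SE 0.052, adjusted P = 0.0295) by the brightest probe and by 0.28 (SE 0.049, adjusted P = 0.0166) by A_55_P2181753, and for both probes the 3 arrays of each group did not overlap. Of the 4 probes, 2 were called higher in this comparison, against 3.45% of all probes tested. That background share was 7.11% with the replicate number as a block, 20.8% with median-centred arrays and 0.0158% to 0.222% with 1 replicate left out. The groups did not overlap, with 14 days higher, in 15.2% of probes. For the dim *Bdh1* probe the difference was 0.18 (95% confidence interval 0.022 to 0.33, adjusted P = 0.148). The *Acat1* ratio differed by 0.093 (95% confidence interval −0.023 to 0.21, adjusted P = 0.304). It was called with each array centred on its median (0.27, adjusted P = 0.0291), a scaling that moved the median difference of all probes from −0.010 to 0.17. The *Bdh1* calls were lost when any 1 replicate was left out, with an adjusted P of 0.105 to 0.177 for the brightest probe. Against 1 day, the 14-day *Bdh1* ratios were higher by 0.16 and 0.25 without passing (adjusted P = 0.253 and 0.105), and 0.0745% of all probes passed (0.846% with the replicate number as a block). A_55_P2181753 passed in 2 of 14 alternatives, with normexp and loess (adjusted P = 0.0495) and with the slide as a random block (0.0420).

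The levels of the separate pools were compared next. Levels are log2 signals over the 75th percentile of their channel and compare 1 probe across pools only. *Bdh1* by its brightest probe was highest in the control pools of the MgH2 arrays, at 5.43 ± 0.061 for 3 days, 5.40 ± 0.084 for 1 day and 5.36 ± 0.058 for 7 days (SD, n = 3 each). The treated pools followed, at 5.31 ± 0.060, 5.30 ± 0.11 and 5.20 ± 0.060 for 1, 3 and 7 days. The H2-water pools came last, at 5.19 ± 0.054 for treated and 5.13 ± 0.058 for control. *Acat1* had nearly the same order, from 4.14 ± 0.12 in the 3-day control pools to 3.83 ± 0.070 and 3.74 ± 0.038 in the control and treated pools at 14 days. By A_55_P2181753 the control pools of the MgH2 arrays (4.25 to 4.29) lay above the H2-water pools (4.14 treated and 4.10 control), and the treated pools of the MgH2 arrays were lowest in mean (4.04 to 4.06). Single MgH2 control pools stayed above every H2-water pool by this probe, and treated pools overlapped the H2-water pools. In the orders of *Acat1* and of the brightest *Bdh1* probe each group of pools overlapped the next in range, so that no neighbours can be placed. Between the MgH2 and the 14-day arrays the direction depended on the scaling. The *Bdh1* control level was 0.27 higher on the 9 MgH2 arrays when scaled to the 75th percentile and 0.14 lower when scaled to the channel total (a difference of −0.14), and the *Acat1* control level differed by 0.28 and −0.13. No order of levels between the 2 experiments is drawn from these data.

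**Figure D3:**
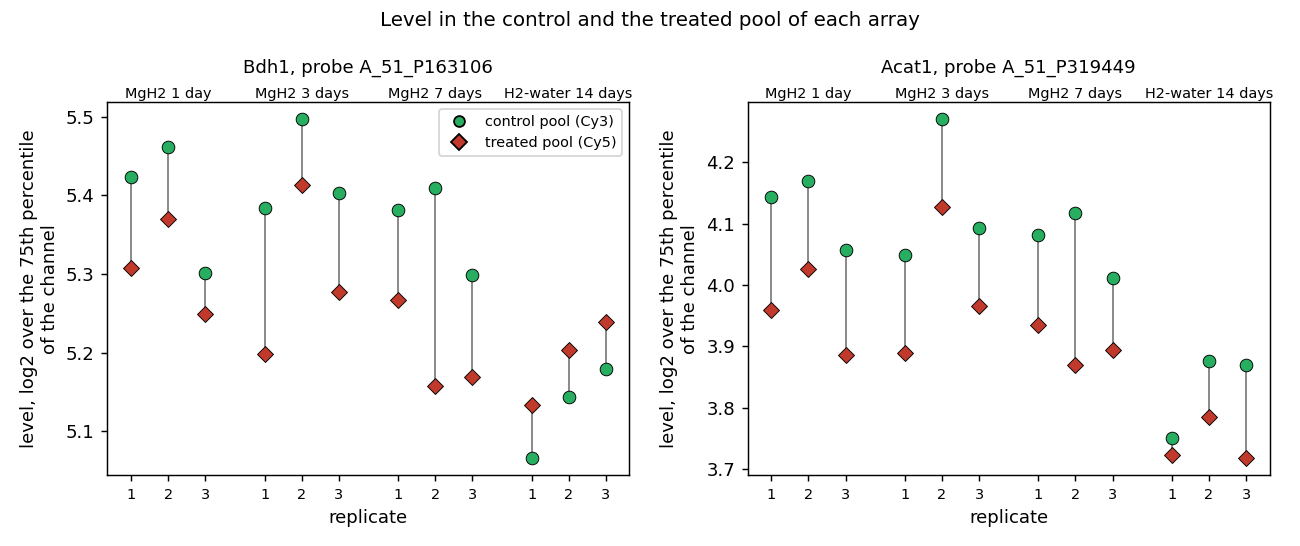
Level of *Bdh1* (left) and *Acat1* (right) in the control pool (circle) and the treated pool (diamond) of each array, as log2 signal over the 75th percentile of the channel (vertical axis, not starting at 0), by group and replicate. The treated pool lies below the control pool on all 9 MgH2 arrays for both genes, and on the H2-water arrays above it for *Bdh1* and below it for *Acat1*.

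Over the 9 MgH2 arrays the ratios of *Bdh1* and *Acat1* had a Pearson r of 0.66 and a Spearman rho of 0.10. Without the 2 arrays farthest from the median of *Bdh1*, r was −0.45, so the relation rests on those arrays, and replicate 2 at 7 days was the lowest for both genes. With median-centred arrays r was 0.93, and 0.63 without 2 arrays. That centring subtracts the same array median, −0.12 to 0.13 over these arrays, from both genes. The genes' own SDs were smaller, at 0.062 for *Bdh1* and 0.042 for *Acat1*. The shared term enters both series, so the centred r cannot show whether the genes moved together. No P is given since the arrays may share control RNA. Over all 12 arrays, which fall into 2 experiments, the 5 genes of 11579 whose ratios followed *Bdh1* most closely were *Thnsl1* (r = 0.92), *Aldh3a2*, a fatty aldehyde dehydrogenase (0.90), *Diaph1* (0.89), *Hhat* (0.88) and *Pacsin3* (0.88). For *Acat1* they were *Gatad1* (0.85), *Thnsl1* (0.83), *Apool* (0.82), *Champ1* (0.82) and *Ripk3* (0.82). These are descriptions, and such r values also hold the step between the 2 experiments. *Thnsl1*, common to both, had a mean ratio of −0.20 on the 9 MgH2 arrays and 0.21 at 14 days.

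Among the other ketone body enzymes, *Oxct1* was the only one called in single groups. It encodes the mitochondrial CoA transferase that lets tissues use acetoacetate and that hepatocytes hold at very low levels. Its ratios were 0.16, 0.013 and −0.029 after 1 day, −0.52, −0.54 and −0.15 after 3 days and −0.69, −0.48 and −0.52 after 7 days. It was thus near 0 at 1 day and lower on every array at 3 and 7 days. The means of −0.40 and −0.56 were called lower (adjusted P = 0.0090 and 0.0013), as was the difference of 7 days from 1 day (−0.61, adjusted P = 0.0207). After H2-water its ratios straddled 0 with a mean of −0.045, and the ratio at 14 days was higher than at 7 days by 0.52 (adjusted P = 0.0344). The 3-day call was lost without replicate 1 (adjusted P = 0.0557) or replicate 2 (0.0695). Both differences between groups were lost with any 1 replicate left out (adjusted P = 0.0890 to 0.150 and 0.139 to 0.189), and with normexp and loess the means shrank to −0.17 at 3 days and −0.22 at 7 days and the difference of 7 days from 1 day to −0.28, all 3 still called.

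Of the 9 enzymes in this list 6 were above background on all 12 arrays. The dim ones were *Oxct2a*, on none, and *Oxct2b* and *Hmgcll1*, on 1 array each. Of the 6, *Oxct1* alone was called at 3 and 7 days, where 11.1% and 14.2% of all probes were called lower, and none was called at 1 or 14 days. In the mean of the MgH2 days *Oxct1*, *Acat3* (−0.15, adjusted P = 0.0058) and *Hmgcs1* (−0.30, adjusted P = 0.0257) were called lower, as were 22.6% of all probes. The *Hmgcs1* value ranged from −0.37 to −0.15 and the *Acat3* value from −0.18 to −0.099 with 1 replicate left out, and each call was lost in 1 such setting, without replicate 3 for *Hmgcs1* (adjusted P = 0.257) and without replicate 1 for *Acat3* (0.0669). *Hmgcs1* makes HMG-CoA in the cytosol for cholesterol synthesis. *Acat3* is a close relative of the cytosolic thiolase gene *Acat2*, and whether its probe separates the pair was not tested. *Acat2* itself had means of −0.057, −0.0040, −0.024 and 0.023 at 1, 3, 7 and 14 days, none called. *Bdh2*, a cytosolic relative of *Bdh1*, had means of 0.19, 0.15, 0.022 and 0.063, none called. *Aacs*, which activates acetoacetate in the cytosol for lipid synthesis, spread widely with MgH2, from 0.93 on replicate 1 to −0.39 on replicate 2 at 1 day, and its mean of 0.73 at 14 days was not called either. Of the sterol O-acyltransferases, *Soat1*, formerly also called ACAT-1, was above background on no array, and *Soat2* had means of −0.057, −0.19, −0.041 and 0.057, none called.

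**Figure D4:**
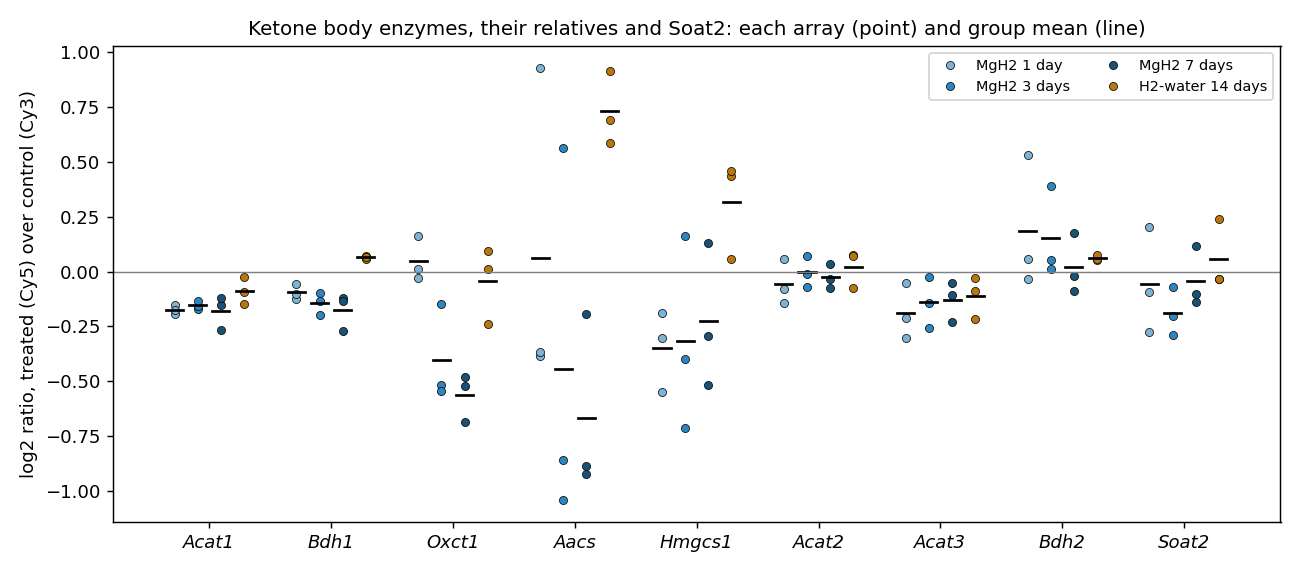
Log2 ratio of treated over control (vertical axis) on each array (points) with the mean of each group of 3 (lines) for *Acat1*, *Bdh1* by its brightest probe, 6 other ketone body enzymes and *Soat2*. *Acat1* and *Bdh1* lie below 0 on all 9 MgH2 arrays, *Oxct1* lies below 0 on all arrays at 3 and 7 days, and the *Aacs* points range from −1.04 to 0.93.

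Calls of single genes in the lists below often rested on all 3 replicates. Of 50 such calls over the 4 groups, without those of *Acat1* and *Bdh1*, 34 were lost when some replicate was left out and 20 with any 1 left out, among them 7 and 5 of 7 at 1 day. The genes that supply acetyl-CoA moved in both directions. Of 15 beta-oxidation genes, all tested, 4 were lower and none higher after 1 day, with a list median of −0.074 beside −0.0033 for all probes. These were *Acadm* (−0.22) and *Acads* (−0.17), acyl-CoA dehydrogenases, and *Hadha* (−0.23) and *Hadh* (−0.24), which catalyse later steps. After 3 days 5 were higher and 1 lower, after 7 days 4 higher and 1 lower, and after 14 days 2 higher and 1 lower, with medians of 0.046, 0.015 and 0.023. Among all probes 5.15%, 12.3%, 15.3% and 4.95% were called higher at 1, 3, 7 and 14 days, and 4.23%, 11.1%, 14.2% and 3.91% lower. *Cpt1a*, the gate for fatty acid entry into mitochondria, rose by 0.33, 0.42 and 0.27 at 3, 7 and 14 days (adjusted P = 0.0011, 2.0e-04 and 0.0068). *Etfdh*, which passes electrons from these dehydrogenases to ubiquinone, rose by 0.23, 0.23 and 0.24, while *Hadh* stayed lower at 3 and 7 days (−0.20 and −0.16). The others called higher were *Hadhb*, *Cpt2* and *Etfb* at 3 days and *Hadhb* and *Acadl* at 7 days, and *Hadha* was lower at 14 days (−0.17). In the mean of the MgH2 days 3 of the 15 were called higher and 5 lower (22.7% and 22.6% of all probes).

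Among the 8 thiolases, to which *Acat1* belongs, 1 was called at 1 day (*Acat1*). *Acaa1b*, a peroxisomal thiolase, fell at 3 and 7 days (−0.39 and −0.47) beside *Acat1*, and *Hadhb*, the thiolase subunit of the trifunctional protein, rose at both (0.17 and 0.17). After H2-water *Acaa1a* was higher (0.25, adjusted P = 0.0304) and none was lower. List medians were −0.065, −0.071, −0.10 and 0.055 at 1, 3, 7 and 14 days. Of all probes 4.23%, 11.1%, 14.2% and 3.91% were called lower at these times, and 5.15%, 12.3%, 15.3% and 4.95% higher. Over the mean of the MgH2 days 5 of 8, *Acat1* among them, were lower and 1 higher (22.6% and 22.7% of all probes). However, *Acaa2* and *Scp2*, 2 of the 5, were called higher under another background correction and loess. Of 21 genes of branched-chain amino acid breakdown, the pathway of isoleucine in which *Acat1* takes part, *Acat1* and *Aldh6a1* (−0.23) were lower at 1 day and none was higher. At 3 days 4 were higher and 3 lower (12.3% and 11.1% of all probes), at 7 days 3 and 4 (15.3% and 14.2%), and at 14 days 3 and none (4.95% and 3.91%). *Bckdhb*, a subunit of the branched-chain ketoacid dehydrogenase, rose by 0.28, 0.32 and 0.27 at 3, 7 and 14 days, and *Bckdk*, the kinase that switches this complex off, fell at 3 and 7 days (−0.38 and −0.40). *Ivd*, of leucine breakdown, rose at the same 3 times (0.28, 0.28 and 0.26).

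Of 9 regulators of ketogenesis, 8 were tested, since *Fgf21* was above background on 1 array. *Sirt3*, a mitochondrial deacetylase, was called higher in all 4 groups, by 0.16, 0.28, 0.25 and 0.22 (adjusted P = 0.0395, 0.0014, 0.0019 and 0.0114), though the 1-day call was lost with any 1 replicate left out (adjusted P = 0.0973 to 0.178) and the 14-day call without replicate 1 (0.0933) or replicate 3 (0.0660). *Ppargc1a*, a coactivator of PPARα, rose at 3 and 7 days (0.58 and 0.77). Its 3-day call was lost with any 1 replicate left out (adjusted P = 0.0669 to 0.199), and its 7-day call in at least 1 such setting (up to 0.0563). *Mlxipl*, a glucose-sensing factor of lipid synthesis, was higher at 1 and 14 days (0.33 and 0.40) and lower at 3 and 7 days (−0.33 and −0.42), and its difference between 7 days and 1 day was −0.74 (adjusted P = 0.0122). The *Mlxipl* calls at 1, 3 and 14 days were lost with any 1 replicate left out (adjusted P = 0.0546 or more), and that at 7 days was not (up to 0.0307). *Ppara* itself was called in none of the 4 groups. Of the 8 regulators, 2 were called higher in each group, and 1 was called lower at 3 and at 7 days. Of 6 transporters of ketone bodies and other monocarboxylates, all tested, *Slc16a6* was called lower at 7 days (−0.66, adjusted P = 0.0464) and no other at any of the 4 times. The *Slc16a6* call was lost with any 1 replicate left out (adjusted P = 0.105 to 0.162). Among all probes 5.15%, 12.3%, 15.3% and 4.95% were called higher at 1, 3, 7 and 14 days. The shares called lower were 4.23%, 11.1%, 14.2% and 3.91%.

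Markers of other cell types moved in part with these groups. Of 10 hepatocyte markers 9 were above background on all 12 arrays and *Cyp2e1* on 11, while of 6 muscle markers none was and *Ckm* and *Myl2* were above it on no array. Among 5 stellate cell and fibroblast markers, *Col1a1*, *Col3a1* and *Lrat* were lower at 3 days (−0.41, −0.54 and −0.47) and at 7 days (−0.39, −0.42 and −0.44), which made 3 of 4 tested at 3 days and 3 of 5 at 7 days. Of all probes 11.1% and 14.2% were called lower at 3 and 7 days, and 12.3% and 15.3% higher. Of 5 leukocyte and Kupffer cell markers tested, 1 was higher (*Cd3e*, 0.11) and 1 lower (*Clec4f* of Kupffer cells, −0.36) at 3 days, and 2 were lower at 7 days (*Clec4f*, −0.45, and *Ptprc*, −0.70). Of 5 blood markers 1 was lower at both times (*Alas2*, −0.56 and −0.70), with list medians of 0.0053 and −0.29, and their summed level, in units of the 75th percentile of the channel, overlapped between treated and control pools at 3 days (104 to 117 and 87.9 to 143) and 7 days (79.0 to 120 and 87.2 to 150). The summed level of the 4 stellate cell markers measured throughout, in the same units, was 2.58 to 3.09 in treated and 3.30 to 4.32 in control pools at 3 days, 2.68 to 3.20 and 3.35 to 4.11 at 7 days, and overlapped at 1 day (3.83 to 4.91 and 3.46 to 4.35) and at 14 days (3.02 to 3.67 and 3.04 to 3.52). That of 5 leukocyte and Kupffer cell markers was 8.58 to 9.46 in treated and 10.03 to 11.5 in control pools at 3 days, 8.19 to 9.23 and 10.4 to 12.0 at 7 days, and overlapped at 1 and 14 days. That of 4 endothelial markers was higher in treated pools at 1 day (16.9 to 18.5 against 15.5 to 16.3). It overlapped at 3, 7 and 14 days. These sums add linear signals, so bright genes weigh most. By mean control level (log2), *Clec4f* (2.86) led the leukocyte and Kupffer cell markers, with *Cd3e* next (0.43). *Serpina1a* (9.31) and *Alb* (9.11) led the 9 hepatocyte markers above background on all 12 arrays. The sum of 9 hepatocyte markers lay higher in the treated pools, with no overlap, at 1 day (2185 to 2266 against 2078 to 2178), 3 days (2232 to 2433 against 2001 to 2228) and 7 days (2302 to 2691 against 2004 to 2280), and overlapped at 14 days. At 7 days it went with *Alb* called higher (0.41), and *Apob* was called lower (−0.34). *Epcam* of bile duct cells and the adipocyte genes *Adipoq*, *Lep* and *Plin1* were above background on no array. The other of 4 adipocyte markers, *Cfd*, which encodes the protease adipsin, was above background on all 12 and had the widest spread, with means of 0.31, −2.19, −2.42 and 1.33 at 1, 3, 7 and 14 days, of which that at 7 days was called lower (adjusted P = 0.0379). Its level in these units was 0.106 to 0.156 in treated and 0.196 to 1.66 in control pools at 7 days. The part of cell composition in the *Bdh1* and *Acat1* results was not tested. In these bulk samples fewer cells of a type and less RNA per cell cannot be told apart.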

How the data were processed

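The intensity values were deposited as the authors' Feature Extraction output for 12 two-color Agilent arrays, background-corrected and normalized between dyes within each array. The scanner headers give version 10.7.3.1 for the 14-day arrays and 10.10.1.1 for the others, and the submitters' processing notes 10.10.1. The deposited log10 ratio is computed from these intensities, and the deposited value table gives the same ratio as log2. The median of every column of that table was 0, a value that many spots hold exactly, while the median log2 ratio of the processed signals was −0.12 to 0.13 per array. The processed intensities were not scaled between arrays. Each of the 12 arrays holds 43020 non-control spots of 39429 probes, 67.9% of which carry 1 gene symbol by RefSeq record, matched on GRCm38.p6. From 51.8% to 56.5% of spots were above background, and no depth applies. The number of arrays limits the precision.

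Log2 ratios of processed red over green signal were averaged over the spots of a probe, without control spots and spots marked as non-uniform or outliers. The 12 arrays were fitted with a mean per group in limma 3.58.1 (R 4.3.3). Tests were two-sided, and P was adjusted by the Benjamini-Hochberg method among probes whose channels both lay above background on every array compared. The fit was tested on simulated data. The methods divide each array by its total intensity, which leaves a ratio as deposited. A gene is represented by its brightest probe. Other genes were named from lists if called, and all measured members of the ketone body enzyme and sterol O-acyltransferase lists. Members and lists were chosen with earlier results of these data known. In the list of ketogenesis enzymes 2 genes are not reported here. The fit had no replicate block. Replicate numbers were judged to pair the MgH2 arrays, which made the block an alternative to be printed. The ground was that deviations from group means correlated within a number (r = 0.368 to 0.655 over 9 pairs). For different numbers r was −0.433 to 0.0531. Deviations within a group sum to 0, so these r values are tied to those within a number and are no separate reference. Within a number, r with the 14-day arrays was −0.041 to 0.287.

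Alternatives were channel totals, median-centred arrays, normexp (offset 50) with loess, the deposited table, marked spots kept, the median over spots, no filter on dim probes, fits of the compared arrays alone, replicate and slide blocks, leaving out each replicate and the methods' t-test. A random replicate block and averaging of days within a number were added after the data had been seen.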

Additional observations from a re-analysis of the deposited data

Results flagged for a closer look

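Differences between groups under the same contrast passed the threshold for several of these genes by a limma test of the difference itself. Among all probes tested, 6.94% were called for 7 days against 1 day and 6.59% for 14 days against 7 days. Between 7 days and 1 day of MgH2 the log2 ratio of treated over control differed by −0.61 for *Oxct1*, 0.33 for *Cpt1a*, 0.26 for *Acadl*, −0.74 for *Mlxipl* and −0.19 for *Gcgr*, the glucagon receptor. Between 14 days of H2-water and 7 days of MgH2 it was higher by 0.24 for the brightest *Bdh1* probe, 0.28 for A_55_P2181753 of *Bdh1*, 0.52 for *Oxct1*, 0.77 for *Acaa1b*, 0.81 for *Mlxipl* and 0.39 for *Bckdk*. Between 14 and 3 days every array of one group lay below 0 and every array of the other above it for the same *Bdh1* probes, which differed by 0.21 (A_51_P163106) and 0.29 (A_55_P2181753). That last pair of differences was not tested, and the share of all probes with such a pattern was not counted. For another pair of groups, 14 and 7 days, 15.2% of probes had no overlap with 14 days higher. That rule is looser than opposite signs on every array, so the share does not stand in for the one not counted. With any 1 replicate left out, the calls above were lost for *Oxct1*, *Cpt1a*, *Acadl*, *Gcgr*, *Acaa1b*, *Bckdk* and *Bdh1* (adjusted P of 0.0637 or more), and for *Mlxipl* in at least 1 such setting (up to 0.101 and 0.0908).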

How the results depend on the processing

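The mean of the MgH2 days kept the direction and the call of *Acat1* and of both brighter *Bdh1* probes in 15 of 15 alternatives (adjusted P up to 0.0301, 0.0324 and 0.0122). The calls by day were less stable. *Acat1* at 1 day kept its value of −0.17 but missed the threshold with dim probes kept (adjusted P = 0.0902), in a fit of those arrays alone (0.218) and by the methods' t-test (0.268), and ranged from −0.18 to −0.16 with 1 replicate left out. At 3 days *Acat1* (−0.15) and *Bdh1* (−0.14) missed it in the same 3 settings (adjusted P = 0.0785, 0.135 and 0.597 for *Acat1*, 0.102, 0.168 and 0.571 for *Bdh1*) and with median-centred arrays (−0.16 and −0.15, adjusted P = 0.0709 and 0.121). With 1 replicate left out the ranges were −0.16 to −0.15 for *Acat1* and −0.16 to −0.11 for *Bdh1*. At 7 days *Acat1* (−0.18) and *Bdh1* (−0.17) missed it in a fit of those arrays alone (0.0985 and 0.110) and by the t-test (0.261 and 0.314), and *Bdh1* ranged from −0.20 to −0.13 with 1 replicate left out. The t-test's own calls after adjustment were few, none of 19470 probes at 7 days, where 3664 had an unadjusted P under 0.05.

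The 14-day against 7-day difference of *Bdh1* (0.24) was lost with those arrays alone (adjusted P = 0.0759) and ranged from 0.20 to 0.26 with 1 replicate left out, and that of *Acat1* passed with median-centred arrays (0.27). Differences between MgH2 days, none of them called, changed sign. For *Acat1* this was −0.0073 at 3 days against 1 day with normexp and loess, and at 7 days against 1 day 0.0032 with channel totals and −0.037 to 0.047 with 1 replicate left out. At 7 against 3 days the ranges with 1 replicate left out were −0.048 to 0.016 for *Acat1*, −0.086 to 0.039 for the brightest *Bdh1* probe, −0.036 to 0.057 for A_55_P2181753 and −0.038 to 0.050 for A_52_P468343. A_55_P2181753 there was −0.10 with median-centred arrays and −0.039 with the slide as a fixed block. A_52_P468343 there was 0.0018 with channel totals and 0.016 with the slide block. At 7 days against 1 day A_52_P468343 ranged from −0.11 to 0.00069, and at 7 days it was −0.042 with median-centred arrays. With normexp and loess the MgH2 means of *Acaa2* and *Scp2* were 0.12 and 0.085. Level differences between MgH2 and 14-day arrays turned with channel totals (−0.14 and −0.35 for *Bdh1* control and treated, −0.13 and −0.22 for *Acat1*). The cause was not tested.

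With the replicate block *Acat1* had adjusted P = 0.0215 at 1 day, and the block changed no call of either gene's brightest probe. It moved the calls among all probes at 1 day from 1013 higher and 833 lower to 1557 and 1409, and at 14 days from 1014 and 801 to 1459 and 1357. Median-centring turned 2973 higher and 2774 lower calls at 7 days into 939 and 5268, and put the median of all probes there at −0.11 in place of 0.0059. Over the brightest probes of both genes 265 values kept their direction and, where tested, were called or not called as before. Of the rest, 29 lost the call, 9 changed sign and 1 gained a call. These counts take in correlations and level differences, which have no call, and the 9 include the level differences above. The 265 include comparisons not called in the main fit, so the 29 are not set against calls alone. Dim signal limits the *Bdh1* probe A_52_P468343.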

Other observations

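Liver lobules divide labor between hepatocytes near the portal vein, which make glucose, and those near the central vein, which make glutamine and oxidize drugs. Of 5 periportal markers, *Pck1*, which controls the making of glucose, was called higher after 3 and 7 days of MgH2 (0.31 and 0.31 on the log2 scale, adjusted P = 0.0210 and 0.0150) and lower after 14 days of H2-water (−0.39, adjusted P = 0.0160). *Gls2* was lower at 1 day (−0.23) and *Cyp2f2* at 7 days (−0.29), so that these markers did not move one way. Of 5 pericentral markers, *Cyp2e1* was higher at 3 and 7 days (0.22 and 0.28), and *Glul*, which makes glutamine, was lower at 7 days (−0.37, adjusted P = 0.0111). Of all probes 5.15%, 12.3%, 15.3% and 4.95% were called higher at 1, 3, 7 and 14 days. The shares called lower were 4.23%, 11.1%, 14.2% and 3.91%. Whether these marker calls hold with 1 replicate left out was not examined. The summed level of 5 periportal markers overlapped between treated and control pools in each of the 4 groups.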
